A study of Mus musculus with 8 samples.

Results

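The mRNAs described here encode RNA polymerase II, the general transcription factors that load it onto promoters, the Mediator complex and a few kinases, cyclins and elongation factors that act on the polymerase. They were chosen by gene symbol, taking Med, Polr2, Gtf2 and Taf symbols that carry a number or subunit letter, together with Cdk7, Cdk8, Cdk9, Ccnc, Ccnh, Ccnt1, Ccnt2, Supt5, Supt6 and Ctdp1. The rule found 126 of the 55681 probes that are not controls, covering 90 of 20972 gene symbols. Of these 90 genes, 87 had a probe with a usable spot on every array and a signal well above background throughout at least 1 group, and were tested, and 85 of the 87 were well above background on all 8 arrays. The exceptions were Taf4b and the antisense transcript Med9os. Med12l and Taf7l2 were too dim, Taf4 was left out for want of a usable spot on untreated replicate 2, and Polr2a, Polr2d, Med6 and Taf1 are not analysed here.

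RNA polymerase II transcribes all protein-coding genes. At a promoter, TFIID recognises the core sequence, TFIIA and TFIIB stabilise it, TFIIF escorts the polymerase, and TFIIE and TFIIH open the DNA, while Mediator relays signals from enhancer-bound activators and carries a detachable kinase module. Phosphorylation of the polymerase's C-terminal domain (CTD) by CDK7 in TFIIH and by CDK9 in P-TEFb moves the enzyme from initiation into productive elongation, and the phosphatase encoded by Ctdp1 removes phosphate so that the polymerase can be used again.

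RNA was measured on 8 single-colour Agilent arrays of mouse embryonic stem cells, pluripotent cells of the early embryo, in a study of mRNA degradation under control of ERK, a growth factor-activated kinase. All 3 groups were grown with 250 nM PD173074, which inhibits FGF receptors, and with LIF, a cytokine that keeps the cells undifferentiated. The 4OHT group (3 arrays) received 5 µM actinomycin D, which blocks transcription, and 30 min later 250 nM 4OHT (4-hydroxytamoxifen, a ligand used to switch on estrogen receptor fusion proteins) for 4 h. The vehicle group (2 arrays) received the same actinomycin D and then ethanol for 4 h. Untreated cells (3 arrays) were collected at 0 h without either agent by their treatment label, although their titles carry the abbreviation of actinomycin D too. The labels name neither the cell line nor the protein on which 4OHT acts, and the design text gives 3 biological replicates a condition, of which 2 vehicle arrays are used here.

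Levels are log2 signal minus the array's 75th percentile, and every difference below is a difference of these log2 levels with its standard error (SE). A difference was called where its p, from limma in 1 fit of all 8 arrays and adjusted over 28491 features, was under 0.05. These p-values measure the spread between the arrays, whose number limits their precision. The 75th percentile itself was 180 to 209 on the 4OHT arrays, 166 and 205 on the vehicle arrays, and 333 to 457 on the untreated arrays. Against spike-in control probes it was 2.42-fold lower with vehicle and 3.00-fold lower with 4OHT than in untreated cells, and 1.24-fold lower with 4OHT than with vehicle. A value on the spike-in scale therefore lies 1.28 (vehicle minus untreated), 0.31 (4OHT minus vehicle) or 1.58 (4OHT minus untreated) log2 units below the value given first. The 3 4OHT arrays were on one slide and the other 5 on another, so 4OHT and slide cannot be told apart, and the vehicle and untreated arrays lay in different rows of their slide. In RNA from whole cultures, fewer cells of a type and less RNA per cell cannot be told apart. The 8 embryonic stem cell markers were well above background in all groups. Of 8 feeder fibroblast markers, 4 were with 4OHT, 4 with vehicle and 5 in untreated cells, and Postn and Lum on no array. Of 6 primitive endoderm markers 1 was with 4OHT, 1 with vehicle and 6 in untreated cells, and of 5 trophoblast markers 3 were in each group, with Elf5 on no array. Summed levels of the feeder markers (signal over the 75th percentile) were 4.01 to 4.54 with 4OHT, 3.30 to 3.79 with vehicle and 2.65 to 3.81 in untreated cells. Those of the primitive endoderm markers were 0.214 to 0.290 with 4OHT, 0.267 to 0.277 with vehicle and 0.683 to 0.866 in untreated cells. Trophoblast sums were 5.77 to 10.7 with 4OHT, 5.90 to 11.4 with vehicle and 6.74 to 7.46 in untreated cells. Their part in the results was not tested.

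Vehicle against untreated asks which of these mRNAs were depleted, relative to the others, after transcription had been blocked. RNA polymerase II subunit mRNAs were all higher relative to the 75th percentile, whereas a minority of Mediator, TFIID and regulatory kinase mRNAs fell steeply, the Mediator subunit Med26 the furthest. Of the 87 genes, 46 were called higher and 16 (18.4%) lower, where 41.5% and 15.9% of all features were. Over the 14930 features with a gene symbol the shares were 41.4% and 19.1%. The median difference of the 87 genes was 0.44, against 0.40 over all features and 0.35 over those with a symbol. Being higher here held only relative to the rest of the array. On the spike-in scale all 87 genes were below untreated, 64 were called lower and 0 higher (limma), with a median of −0.83 against −0.88 over all features, of which 98.3% were below untreated and 65.0% were called lower. Quantile normalization gave 22 called higher and 22 lower, where 26.1% and 17.3% of all features were. Scaling to the array median gave 22 and 13, where 26.2% and 12.9% of all features were.

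4OHT against vehicle asks which mRNAs differed once 4OHT was added during the transcription block. Med4, a Mediator subunit, and Ctdp1, the CTD phosphatase, were 3.50-fold and 3.19-fold lower with 4OHT, and Gtf2b, Cdk7, Med17, Taf5l, Taf1c, Taf3 and Med18 were lower by smaller steps. These 9 genes were called lower and 0 were called higher by limma, where 2.58% of all features were called lower and 0.923% higher. Over the features with a gene symbol the shares were 3.07% lower and 1.33% higher. At an unadjusted p under 0.05 (limma), 21 of the 87 were lower and 6 higher, against 3655 and 1804 of all 28491 features. The median difference of the 87 genes was −0.01, against −0.05 over all features. In 29 of the 87 every 4OHT array lay below both vehicle arrays, as in 24.8% of all features. Over all features, 734 were called lower with all arrays. Without 1 of the 4OHT or untreated arrays, 182 (4OHT replicate 2) to 561 (untreated replicate 2) were. The number called among the 87 genes rested on single arrays too. It was 2 without vehicle replicate 1 or without 4OHT replicate 2, 3 without vehicle replicate 2 or 4OHT replicate 3, 5 without 4OHT replicate 1, untreated replicate 1 or untreated replicate 3, and 6 without untreated replicate 2. Med4 and Ctdp1 were called lower in all 8 of these fits, while Med18, Taf3 and Taf5l were called in 0 of the 8 and Taf1c only without untreated replicate 2. Scaling to the array median, fitting only the groups compared, and leaving out the filter on dim probes each called Med4 and Ctdp1 alone.

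4OHT against untreated spans both steps and shares arrays with each of the other comparisons. In it, 49 genes were called higher and 20 lower, where 41.0% and 18.7% of all features were, with a median of 0.49 against 0.31 over all features. On the spike-in scale all 87 genes were below untreated, with 84 called lower and 0 higher (limma) and a median of −1.09, against 93.4% of all features called lower and a median of −1.27. Quantile normalization gave 32 called higher and 25 lower, where 30.1% and 19.4% of all features were. In 15 genes every 4OHT array was below every vehicle array and every vehicle array below every untreated array, an order found in 5.23% of all features. They were Med4, Med7, Med17, Med18, Med31, Gtf2b, Taf3, Taf5, Taf5l, Taf1c, Cdk7, Gtf2h2, Cdk9, Ccnt1 and Ctdp1, all named because the order was counted over all members.

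**Figure D1:**
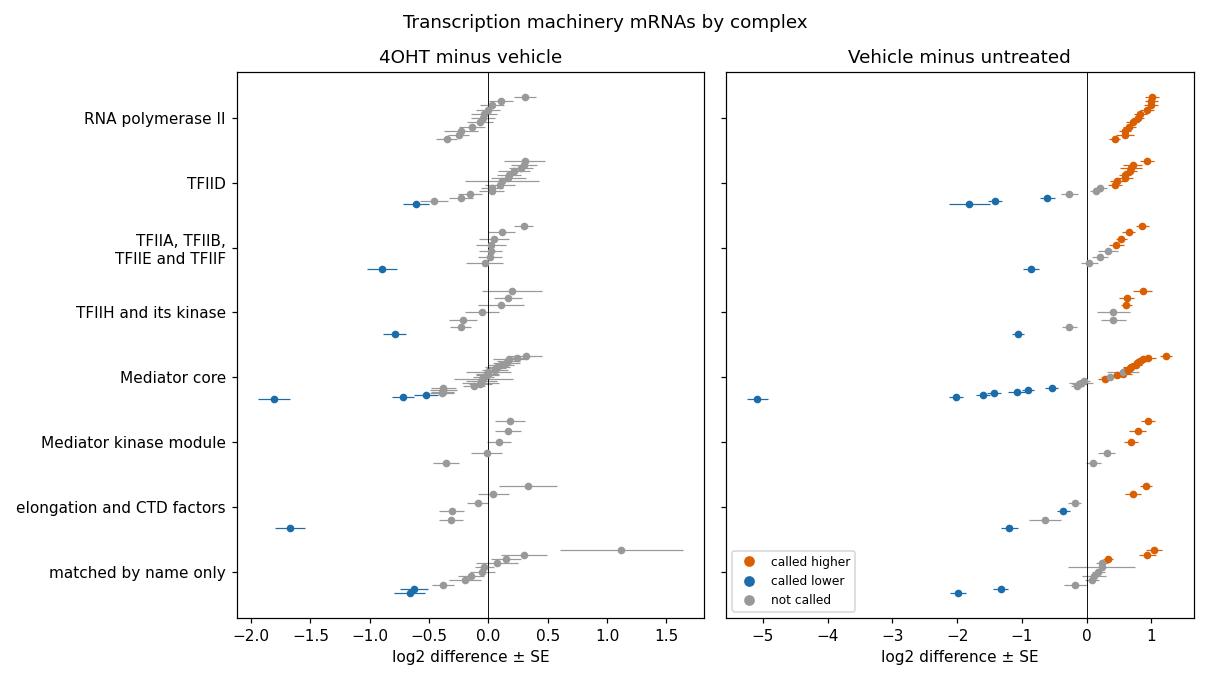
Log2 difference of 87 transcription machinery mRNAs by complex, 4OHT minus vehicle on the left and vehicle minus untreated on the right, each point 1 gene with its standard error as a horizontal line (levels relative to the 75th percentile, 3 4OHT, 2 vehicle and 3 untreated arrays). All 11 polymerase subunits are called higher on the right and none is called on the left, while the 9 genes called lower on the left lie in 6 of the 8 groups. On the spike-in scale each right-hand point lies 1.28 further left, which puts all 87 below 0.

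The 11 measured subunits of RNA polymerase II moved in 1 direction. With vehicle all 11 were called higher than in untreated cells, by 0.43 to 1.004 (median 0.79). On the spike-in scale all 11 were below untreated, 5 of them called lower (median −0.49), and quantile normalization put 8 above and 3 below with 1 called higher. Polr2e, a subunit shared by all 3 nuclear RNA polymerases, had log2 levels of 7.38, 7.53 and 7.48 with 4OHT, 7.50 and 7.51 with vehicle, and 6.63, 6.48 and 6.38 in untreated cells. Polr2f, another shared subunit, had 5.56, 5.59 and 5.73 with 4OHT, 5.67 and 5.67 with vehicle, and 4.76, 4.61 and 4.63 in untreated cells. In both genes the treated arrays lay together above all untreated arrays. Vehicle minus untreated was 1.004 ± 0.11 for Polr2e (adjusted p = 0.00039; −0.27 on the spike-in scale) and 1.002 ± 0.10 for Polr2f (adjusted p = 0.00032; −0.28 on the spike-in scale). With 4OHT none of the 11 passed the test against vehicle (limma; at an unadjusted p under 0.05, 1 was higher and 2 lower). Their differences ran from −0.35 to 0.31. Against untreated, 10 of the 11 were called higher with 4OHT (0 higher and 11 lower on the spike-in scale, 2 and 2 after quantile normalization). Polr2i showed how far this depends on the probe: its brightest probe read 0.71 ± 0.10 higher with vehicle (adjusted p = 0.0011), and its other probe read −0.14 (adjusted p = 0.42).

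TFIID, made of the TATA-binding protein and its associated factors (TAFs), had calls in both directions. With vehicle against untreated, 8 of its 14 tested genes (57.1%) were called higher and 3 (21.4%) lower. Over all features the shares were 41.5% and 15.9%. The spike-in scale gave 0 and 11, and quantile normalization 4 and 3. Taf10, a TAF that SAGA also contains, had log2 levels of 6.28, 6.35 and 6.43 with 4OHT, 6.36 and 6.30 with vehicle, and 5.52, 5.32 and 5.33 in untreated cells. Its vehicle minus untreated difference was 0.94 ± 0.11 (adjusted p = 0.00044; −0.34 on the spike-in scale). Taf9b, a paralogue of Taf9, had a difference of 0.71 ± 0.15 (adjusted p = 0.0059; −0.57 on the spike-in scale). Taf3, whose protein binds trimethylated histone H3 lysine 4 at promoters, moved the other way. Its levels were −1.25, −1.18 and −0.97 with 4OHT, −0.57 and −0.48 with vehicle, and 0.91, 0.91 and 0.84 in untreated cells, and the groups did not overlap. Taf3 fell by 1.41 ± 0.11 with vehicle (adjusted p = 0.00016) and was a further 1.52-fold lower with 4OHT (−0.61 ± 0.11, adjusted p = 0.036). Taf4, a scaffold TAF singled out after its values were seen and not tested, had levels of 1.61, 1.87 and 1.57 with 4OHT, 2.06 and 2.03 with vehicle, and 3.29 and 3.22 in the untreated arrays that measured it. A second Taf3 probe repeated the first step (−1.68, adjusted p = 0.00012) but read −0.01 between 4OHT and vehicle (adjusted p = 0.98).

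Taf4b, a TAF4 paralogue known for its role in mouse germ cells, was dim. It had log2 levels of −6.08, −5.92 and −6.49 with 4OHT, −6.68 and −5.87 with vehicle, and −4.27, −4.89 and −4.24 in untreated cells, and was well above background on the untreated arrays only. The vehicle level was at least 1.20-fold and the 4OHT level at least 1.02-fold below untreated, each bound setting the untreated mean against the dimmest signal that passed as well above background, or the probe's own signal where that was higher. The fitted differences were −1.81 ± 0.31 with vehicle and −1.70 ± 0.28 with 4OHT, and both changed sign under normexp background correction (0.50 and 0.47). Both are included in the counts of calls. The probe passed the filter only through the untreated arrays, where it was brightest, so these calls are no independent evidence of a fall. Taf5, the scaffold TAF, was named after its values were seen, as the remaining TFIID gene called lower with vehicle. It fell by 0.61 ± 0.12 (adjusted p = 0.0038), with levels of −0.18 to −0.01 with 4OHT, 0.29 and 0.40 with vehicle and 0.83 to 1.09 in untreated cells. Between 4OHT and vehicle it differed by −0.46 ± 0.12 (adjusted p = 0.089).

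Among the 8 genes of TFIIA, TFIIB, TFIIE and TFIIF, 4 were called higher and 1 lower with vehicle. Over all features 41.5% were called higher and 15.9% lower. The spike-in scale gave 0 and 7 of the 8, and quantile normalization 1 and 1. Gtf2b, which encodes TFIIB, the bridge between the promoter and the polymerase, was the one that fell. It had log2 levels of 2.45, 2.12 and 2.26 with 4OHT, 3.15 and 3.19 with vehicle, and 4.06, 3.93 and 4.10 in untreated cells. The 3 groups were fully separated, by steps that were near-equal in these log2 levels only. On the spike-in scale the differences of Gtf2b were −2.13 (vehicle minus untreated) and −1.20 (4OHT minus vehicle). Gtf2b fell by 0.85 ± 0.12 with vehicle (adjusted p = 0.0011) and was 1.86-fold lower with 4OHT than with vehicle (−0.90 ± 0.12, adjusted p = 0.017), a call kept in 12 of 20 alternative fits. Its partners on the promoter moved differently. Gtf2a2, the small TFIIA subunit, was 0.86 ± 0.10 higher with vehicle (adjusted p = 0.00051; −0.42 on the spike-in scale), and Gtf2f1, the large TFIIF subunit, 0.65 ± 0.10 (adjusted p = 0.0013; −0.63 on the spike-in scale and −0.18 after quantile normalization). The 7 genes other than Gtf2b differed by −0.03 to 0.30 between 4OHT and vehicle, and none of them was called.

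In TFIIH, the factor with helicase and kinase activity, 3 of 7 genes were called higher and 1 lower with vehicle. Over all features 41.5% were called higher and 15.9% lower. The spike-in scale gave 0 and 6 of the 7, and quantile normalization 1 and 2. The gene that fell was Cdk7, the kinase that phosphorylates the CTD and also activates cell cycle kinases. It had log2 levels of 1.0, 0.88 and 0.82 with 4OHT, 1.74 and 1.65 with vehicle, and 2.77, 2.76 and 2.74 in untreated cells. Replicates lay close together in each group and the groups did not overlap. Cdk7 fell by 1.06 ± 0.10 with vehicle (adjusted p = 0.00024) and was 1.73-fold lower with 4OHT than with vehicle (−0.79 ± 0.10, adjusted p = 0.012), called in 14 of 20 alternative fits. A second, dimmer Cdk7 probe read −0.93 between 4OHT and vehicle (adjusted p = 0.13) and 0.65 between vehicle and untreated (adjusted p = 0.077). Ccnh, the cyclin partner of CDK7, had levels of 0.43, 0.88 and 0.86 with 4OHT, 0.25 and 0.81 with vehicle, and 0.30, −0.24 and 0.29 in untreated cells. The vehicle arrays overlapped both other groups, while all 4OHT arrays lay above the untreated ones, and it was called neither with 4OHT against vehicle (0.19 ± 0.25, adjusted p = 0.75) nor with vehicle against untreated (0.41 ± 0.25, adjusted p = 0.20; −0.86 on the spike-in scale). Gtf2h5, a small subunit mutated in a form of trichothiodystrophy, was 0.87 ± 0.15 higher with vehicle (adjusted p = 0.0022; −0.41 on the spike-in scale). Gtf2h1, the p62 subunit, was 0.62 ± 0.12 higher (adjusted p = 0.0041; −0.66 on the spike-in scale). Gtf2h2 passed only against untreated, by −0.48 ± 0.11 with 4OHT (adjusted p = 0.0061).

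Core Mediator, the body that contacts activators and the polymerase, had the widest range of differences between vehicle and untreated among these groups, from −5.09 to 1.23. Of 25 tested genes, 12 were called higher and 7 lower with vehicle than in untreated cells, where 41.5% and 15.9% of all features were. The spike-in scale gave 0 and 18 of the 25, and quantile normalization 10 and 10. Between 4OHT and vehicle 3 were called lower, where 2.58% of all features were. Med26, which helps to recruit elongation factors to Mediator, had log2 levels of −2.10, −1.72 and −2.12 with 4OHT, −2.06 and −1.77 with vehicle, and 3.26, 3.12 and 3.13 in untreated cells. The treated arrays lay together, far below the untreated ones. Med26 fell by 5.09 ± 0.16 with vehicle, which is 34.0-fold (adjusted p = 5.0e-06), and differed by −0.07 ± 0.16 between 4OHT and vehicle (adjusted p = 0.87). Med7, a subunit of the middle module, had levels of 0.89, 0.68 and 0.61 with 4OHT, 1.15 and 1.06 with vehicle, and 3.15, 3.15 and 3.06 in untreated cells. It fell by 2.02 ± 0.11 with vehicle (adjusted p = 3.9e-05), and the 4OHT arrays lay below the vehicle arrays without passing the test (−0.38 ± 0.11, adjusted p = 0.13).

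Med4, another subunit of the middle module, was measured by a pair of probes. Its brighter probe, A_51_P373369, had log2 levels of 1.03, 0.82 and 0.82 with 4OHT, 2.88 and 2.52 with vehicle, and 3.85, 3.72 and 3.74 in untreated cells. The gap between 4OHT and vehicle was several times the spread within either group. Med4 fell by 1.07 ± 0.14 with vehicle (adjusted p = 0.0007) and by a further 1.81 ± 0.14 with 4OHT (adjusted p = 0.0042). On the spike-in scale the differences of Med4 were −2.35 (vehicle minus untreated) and −2.11 (4OHT minus vehicle). Its other probe, A_55_P2033413, read −2.92, −3.31 and −0.78 with 4OHT, −1.72 and −1.86 with vehicle, and −0.68, −0.85 and −0.81 in untreated cells. There, 4OHT replicate 3 stood at the level of untreated cells while the other 4OHT arrays were below both vehicle arrays, and the difference was not called (−0.55, adjusted p = 0.73). With the mean of both probes the call of Med4 was lost (adjusted p = 0.12), and it was kept in the other 19 alternative fits.

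Med17, the scaffold on which the head module is built, had log2 levels of 0.43, 0.52 and 0.49 with 4OHT, 1.16 and 1.24 with vehicle, and 2.15, 2.15 and 2.02 in untreated cells. All 3 groups were apart by far more than their spread. Med17 fell by 0.91 ± 0.09 with vehicle (adjusted p = 0.00035) and was 1.65-fold lower with 4OHT than with vehicle (−0.72 ± 0.09, adjusted p = 0.016), called in 12 of 20 alternative fits. The other core subunits called lower with vehicle are named here after their values were seen. Med18, a head subunit, fell by 1.60 ± 0.11, Med31 by 1.43 ± 0.10 and Med23, the subunit that binds the ERK target ELK1, by 0.54 ± 0.10. Med18 had levels of −1.42, −1.44 and −1.32 with 4OHT, −0.89 and −0.84 with vehicle, and 0.87, 0.62 and 0.73 in untreated cells. It was the weakest of the calls between 4OHT and vehicle (−0.53 ± 0.11, adjusted p = 0.048), and 6 of 20 alternative fits kept it.

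Other core subunits kept up with, or exceeded, the 75th percentile. Med25, a subunit that binds activators, had log2 levels of 4.22, 4.14 and 4.08 with 4OHT, 4.29 and 4.14 with vehicle, and 3.00, 3.03 and 2.94 in untreated cells. The treated groups overlapped each other and lay above all untreated arrays. Med25 was 1.23 ± 0.10 higher with vehicle (adjusted p = 0.00017; −0.05 on the spike-in scale), and Med16, a tail subunit, 0.95 ± 0.13 (adjusted p = 0.00089; −0.33 on the spike-in scale and −0.15 after quantile normalization). For Med1, the subunit that nuclear receptors bind, 4 probes disagreed. The brightest had log2 levels of 2.70, 2.77 and 2.79 with 4OHT, 2.64 and 2.65 with vehicle, and 2.33, 2.06 and 2.11 in untreated cells. It was called higher with vehicle than in untreated cells (0.48 ± 0.11, adjusted p = 0.0082; −0.80 on the spike-in scale). A second probe read 0.25 (adjusted p = 0.092), and the remaining ones were called lower (−0.40, adjusted p = 0.010, and −0.47, adjusted p = 0.020). No direction can be given for Med1.

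**Figure D2:**
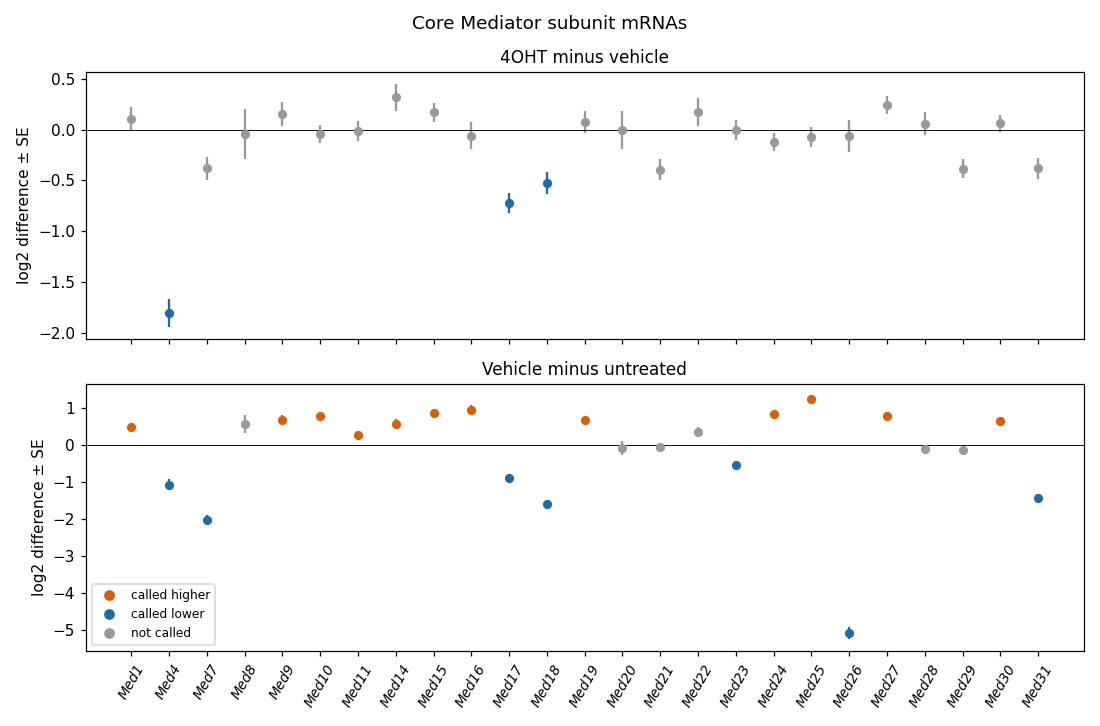
Log2 difference ± SE of the 25 core Mediator subunit mRNAs, 4OHT minus vehicle above and vehicle minus untreated below, each from the brightest probe and relative to the 75th percentile. Med4, Med17 and Med18 are called lower in the upper panel, and Med26 stands lowest in the lower panel at −5.09. On the spike-in scale the lower panel shifts down by 1.28 and all 25 subunits are below 0.

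The kinase module of Mediator, a dissociable unit of CDK8, cyclin C, MED12 and MED13, had calls in 1 direction only. Of its 5 tested genes 3 were called higher with vehicle and 0 lower, where 41.5% and 15.9% of all features were. The spike-in scale gave 0 and 4 of the 5, and quantile normalization 3 and 1. Between 4OHT and vehicle 0 were called. At an unadjusted p under 0.05 (limma), 0 were higher and 1 lower there. Med12 was 0.95 ± 0.11 higher with vehicle (adjusted p = 0.00051; −0.33 on the spike-in scale), Med13 0.79 ± 0.13 (adjusted p = 0.0020; −0.49 on the spike-in scale) and Ccnc 0.69 ± 0.10 (adjusted p = 0.0013; −0.59 on the spike-in scale). Ccnc had log2 levels of 1.61, 1.63 and 1.57 with 4OHT, 1.53 and 1.51 with vehicle, and 0.74, 0.79 and 0.97 in untreated cells. Cdk8, its kinase, had levels of 4.05, 3.90 and 3.85 with 4OHT, 4.24 and 4.34 with vehicle, and 4.31, 4.12 and 4.13 in untreated cells. The 4OHT arrays of Cdk8 lay below the vehicle arrays, but neither 4OHT against vehicle (−0.36 ± 0.11, adjusted p = 0.14) nor vehicle against untreated (0.11 ± 0.11, adjusted p = 0.44; −1.17 on the spike-in scale and −0.35 after quantile normalization) passed the test. The dimmest Cdk8 probe was called higher with vehicle than in untreated cells (1.11, adjusted p = 0.00030).

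The elongation and CTD factors had the lowest median of the groups between vehicle and untreated (−0.27, and −1.55 on the spike-in scale). Of their 6 genes 2 were called higher and 2 lower, where 41.5% and 15.9% of all features were. The spike-in scale gave 0 and 5 of the 6, and quantile normalization 1 and 3. Ctdp1, the phosphatase that recycles the polymerase, had log2 levels of −0.73, −0.81 and −0.81 with 4OHT, 1.05 and 0.74 with vehicle, and 2.22, 1.99 and 2.05 in untreated cells. The 4OHT arrays lay close to each other and far below both vehicle arrays. Ctdp1 fell by 1.19 ± 0.13 with vehicle (adjusted p = 0.00038) and by a further 1.67 ± 0.13 with 4OHT (adjusted p = 0.0042). It was called in all 20 alternative fits. On the spike-in scale the differences of Ctdp1 were −2.47 (vehicle minus untreated) and −1.98 (4OHT minus vehicle).

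P-TEFb, the kinase that releases paused polymerase, is formed by CDK9 with cyclin T1 or T2. Ccnt1 had log2 levels of 0.27, 0.08 and 0.11 with 4OHT, 0.51 and 0.41 with vehicle, and 0.73, 0.88 and 0.84 in untreated cells. It fell by 0.36 ± 0.10 with vehicle (adjusted p = 0.023), a call lost without either vehicle array or without untreated replicate 2 or 3 and kept in 12 of 20 alternative fits, and its difference between 4OHT and vehicle did not pass (−0.31 ± 0.10, adjusted p = 0.17). Cdk9 had levels of 3.87, 3.93 and 3.99 with 4OHT, 4.16 and 4.33 with vehicle, and 4.50, 4.40 and 4.39 in untreated cells. The groups of Cdk9 followed the same order without overlap, by steps that did not pass (−0.31 ± 0.10 with 4OHT against vehicle and −0.18 ± 0.10 with vehicle against untreated, adjusted p = 0.15 for each). Both dimmer Cdk9 probes were called lower with vehicle than in untreated cells (−0.48, adjusted p = 0.0038, and −0.62, adjusted p = 0.020), and one of them was called lower with 4OHT than with vehicle (−0.45, adjusted p = 0.049). Ccnt2 had levels of −1.35, −1.17 and −0.93 with 4OHT, −1.75 and −1.21 with vehicle, and −0.69, −1.21 and −0.60 in untreated cells, with groups that overlapped and no call between 4OHT and vehicle (0.33 ± 0.25, adjusted p = 0.53) or vehicle and untreated (−0.65 ± 0.25, adjusted p = 0.058). Supt5, a subunit of the pausing and elongation factor DSIF, was 0.72 ± 0.13 higher with vehicle (adjusted p = 0.0028; −0.56 on the spike-in scale), and Supt6, a histone chaperone that travels with the polymerase, 0.92 ± 0.09 (adjusted p = 0.00028; −0.36 on the spike-in scale). Neither was called between 4OHT and vehicle (0.04 ± 0.13 for Supt5, adjusted p = 0.90, and −0.09 ± 0.09 for Supt6, adjusted p = 0.64).

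The symbol rule also took in 11 tested genes outside these complexes: factors of RNA polymerase I, subunits of SAGA-type coactivators, the Gtf2i family, Taf15 and the antisense transcript Med9os. Of these, 3 were called higher and 2 lower with vehicle (0 and 8 on the spike-in scale), where 41.5% and 15.9% of all features were. Between 4OHT and vehicle 2 were called lower, where 2.58% of all features were. Taf5l, a TAF5-like subunit of SAGA, a histone acetyltransferase coactivator, had log2 levels of 1.46, 1.57 and 1.69 with 4OHT, 2.13 and 2.35 with vehicle, and 4.34, 4.08 and 4.25 in untreated cells. It fell by 1.99 ± 0.13 with vehicle (adjusted p = 7.7e-05) and was 1.59-fold lower with 4OHT than with vehicle (−0.66 ± 0.13, adjusted p = 0.044), called in 8 of 20 alternative fits. Taf1c, a subunit of the RNA polymerase I factor SL1, had levels of −0.76, −0.71 and −0.58 with 4OHT, 0.02 and −0.14 with vehicle, and 1.34, 1.13 and 1.34 in untreated cells. Taf1c fell by 1.33 ± 0.12 with vehicle (adjusted p = 0.00022) and was 1.54-fold lower with 4OHT than with vehicle (−0.63 ± 0.12, adjusted p = 0.038), called in 9 of 20. For both genes the 3 groups were apart on every array. Taf15, a FET-family RNA-binding protein, was 1.04 ± 0.12 higher with vehicle (adjusted p = 0.00053; −0.24 on the spike-in scale), and Gtf2i, a multifunctional DNA-binding factor, 0.94 ± 0.13 (adjusted p = 0.0011; −0.34 on the spike-in scale).

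**Figure D3:**
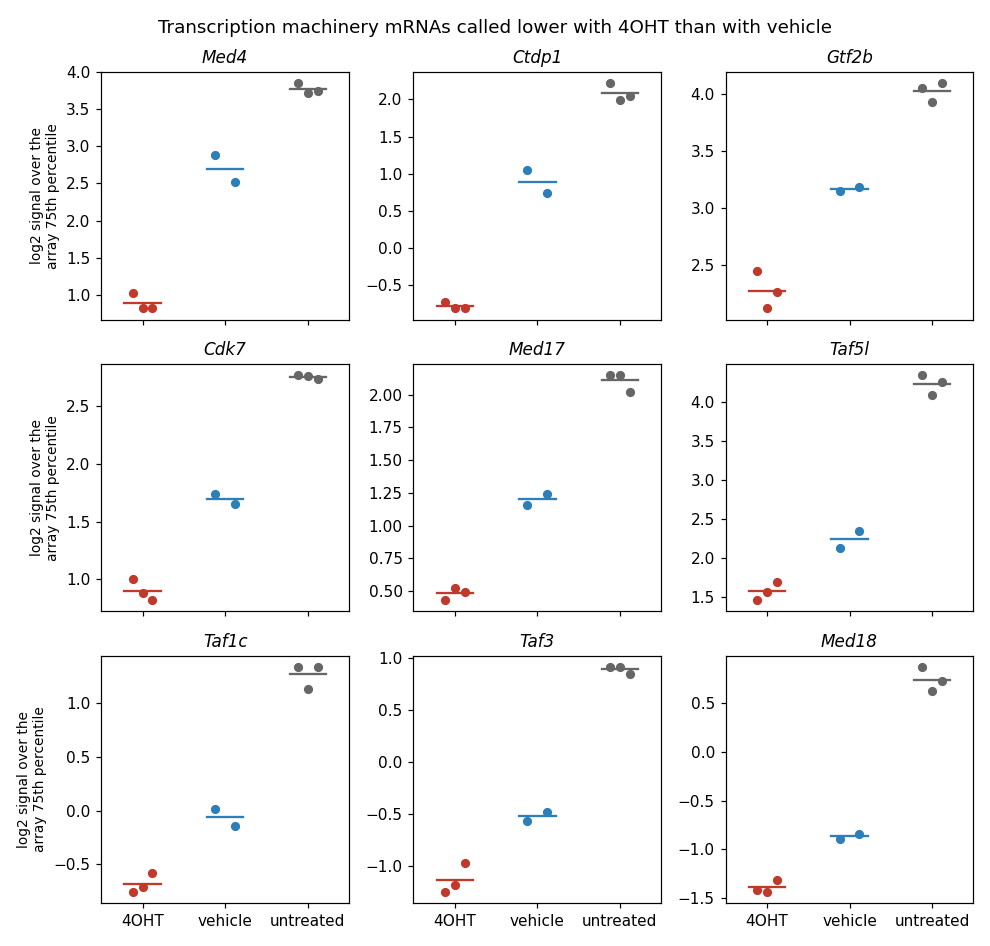
Log2 signal over the array 75th percentile on every array for the 9 transcription machinery mRNAs called lower with 4OHT than with vehicle, each point 1 array and each bar a group mean, with a vertical axis of its own for each gene. In every panel the 3 4OHT arrays lie below the 2 vehicle arrays, and these below the 3 untreated arrays. The gap between 4OHT and vehicle is largest for Med4 (−1.81) and Ctdp1 (−1.67).

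Promoters were read for the genes called lower with 4OHT, a list drawn from these same data. Med7, Med31, Taf5, Gtf2h2, Cdk9 and Ccnt1 had the same order of the 3 groups but were not called, and are not in this list. Taf3, Taf5l and Med18 lost their calls in every fit that left out an array. Taf1c kept its call only without untreated replicate 2. Differences between the shares below were not tested. In the RefSeq promoter table (GRCm38.p6), 75 of the 87 tested genes had an entry, 8 of them among the 9 genes lower with 4OHT. Ctdp1, whose call held in every alternative fit, had no entry. The 250 bases before each start were searched on both strands for 7 motifs, named below with their letters. CCGGAAG, the core bound by ETS factors, was before at least 1 start in 6 of these 8 genes (Med4, Med17, Taf3, Cdk7, Taf5l and Taf1c), in 16 of the other 67 (23.9%) and in 7.83% of 27025 genes. Taf5l and Taf1c have several starts in the table, so these are 6 of 10 windows, and 17 of 80 among the other genes. In none of the windows did it share bases with another of these motifs. The GC box, GGGCGG, was in 6 of the 8, in 64.2% of the other 67 and in 35.4% of all genes. The E-box, CACGTG, was in 2 of the 8 (Med17 and Cdk7), in 16.4% of the other 67 and in 6.86% of all genes. TATAAA, the TATA box, was in 0 of the 8, in 16.4% of the other 67 and in 14.3% of all genes. The CRE, TGACGTCA, was in 0 of the 8 and in 1.77% of all genes. A short form of the YY1 site, ATGGCGG, was in 0 of the 8 and in 2.58% of all genes. A longer form of that site, GCCATTTTG, was in 0 of the 8 and in 0.396% of all genes. A match describes the letters of a window and shows neither binding nor a cause. All windows printed below are among the 6 of 10 that hold the ETS core. Gtf2b and Med18 had no match. The 130 bases before the start are shown for a Mediator middle subunit, a Mediator head subunit, the TFIIH kinase and a TFIID subunit, with the ETS core in capitals (CTTCCGG is the same core read on the other strand). They lie at chr14:73509919-73510048 on the plus strand (Med4), chr9:15279907-15280036 (Med17), chr13:100730943-100731072 (Cdk7) and chr2:10048610-10048739 (Taf3), the last 3 on the minus strand.
Med4: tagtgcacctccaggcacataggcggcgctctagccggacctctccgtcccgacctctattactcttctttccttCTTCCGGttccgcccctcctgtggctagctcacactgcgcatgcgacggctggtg
Med17: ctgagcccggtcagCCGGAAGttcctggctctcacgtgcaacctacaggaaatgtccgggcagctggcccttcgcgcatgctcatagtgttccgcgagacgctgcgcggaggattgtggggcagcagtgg
Cdk7: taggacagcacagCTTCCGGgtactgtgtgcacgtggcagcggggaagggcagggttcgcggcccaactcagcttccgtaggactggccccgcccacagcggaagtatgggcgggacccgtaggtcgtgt
Taf3: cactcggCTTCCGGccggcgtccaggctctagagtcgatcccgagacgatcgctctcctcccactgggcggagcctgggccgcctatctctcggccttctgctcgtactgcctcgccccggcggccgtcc
The capitals begin at −55 from the start in Med4, at −116 in Med17, at −117 in Cdk7 and at −123 in Taf3.

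Where a gene had several usable probes, the probes could be set side by side. Of the 87 genes 27 had more than 1, and the calls of their probes differed in 4 genes between 4OHT and vehicle, in 11 between vehicle and untreated and in 10 between 4OHT and untreated. The median spread between a gene's probes was 0.13, 0.20 and 0.32 in these comparisons, and the largest 1.26, 1.72 and 1.72.

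**Figure D4:**
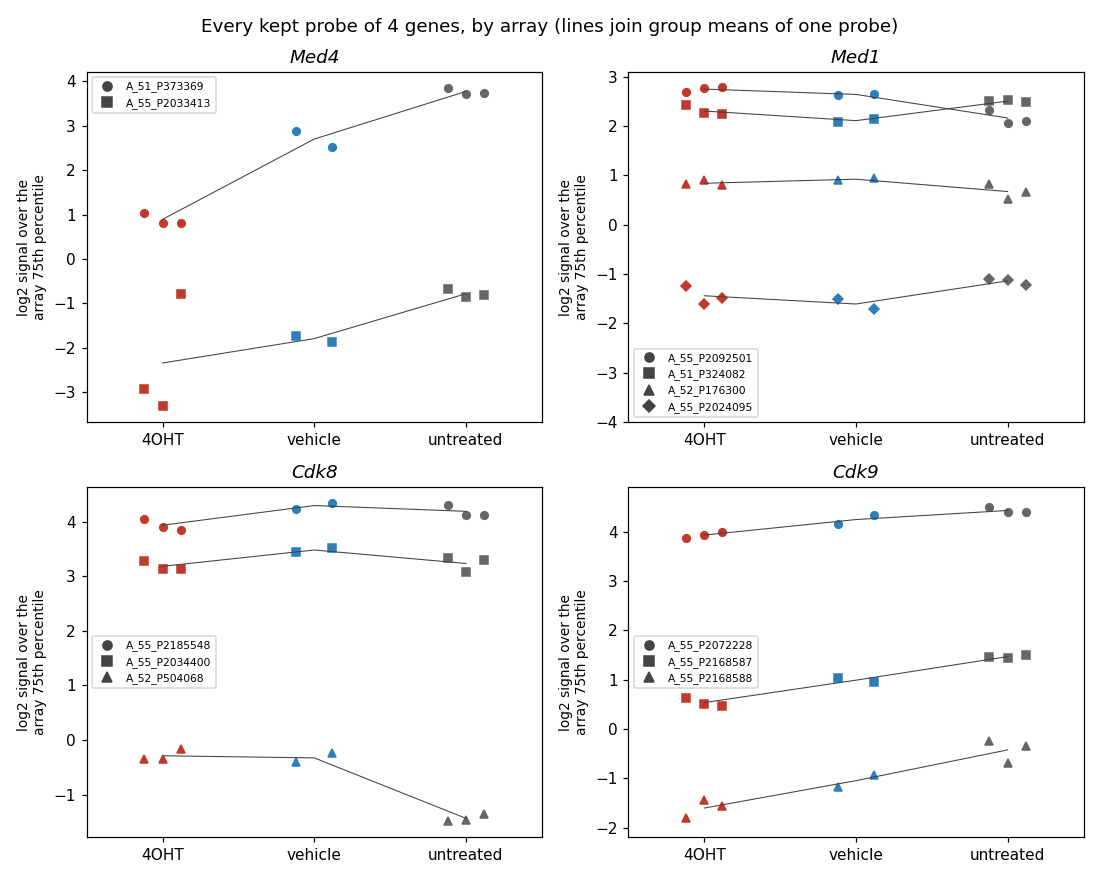
Log2 signal over the array 75th percentile for every usable probe of Med4, Med1, Cdk8 and Cdk9, by array, with lines joining the group means of a probe. The group mean of every Cdk9 probe is lowest with 4OHT and highest in untreated cells, 4OHT replicate 3 departs from the other 4OHT arrays on the dimmer Med4 probe, and the Med1 probes run in opposite directions. Heights of different probes are not comparable.

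Neighbouring genes of the pathway, taken from lists chosen with earlier results of these data known, are given by their counts. All their calls between 4OHT and vehicle were lost with array-median scaling, with only the groups compared and with no filter on dim probes, and of the genes named, Btaf1 was kept in 0, Tbp, Polr1c and Twistnb in 3, Leo1 and Ints5 in 4 and Rtf1 in 6 of the 8 fits that leave out an array. For comparison with the 4 lists, 41.5% of all features were called higher and 15.9% lower with vehicle than in untreated cells. With 4OHT against vehicle, 2.58% of all features were called lower. Of 30 pausing, elongation and super elongation genes, 17 were called higher and 6 lower with vehicle (0 and 21 on the spike-in scale). Between 4OHT and vehicle 2 of the 30 were called lower. Supt16, a subunit of the histone chaperone FACT, was 1.06 ± 0.08 higher with vehicle (adjusted p = 0.00016; −0.21 on the spike-in scale), and Nelfcd, of the pausing factor NELF, 0.96 ± 0.12 (adjusted p = 0.00071; −0.32 on the spike-in scale). Mepce and Hexim1, which hold P-TEFb inactive in the 7SK particle, fell with vehicle by 3.46 ± 0.10 (adjusted p = 4.5e-06) and 2.23 ± 0.16 (adjusted p = 0.00010). Rtf1 and Leo1, of the PAF1 elongation complex, were the ones lower with 4OHT than with vehicle (−0.94 ± 0.11, adjusted p = 0.013, and −0.63 ± 0.09, adjusted p = 0.020). Of 24 other initiation and CTD genes, 11 were called higher and 6 lower with vehicle (0 and 20 on the spike-in scale), and 3 were lower with 4OHT than with vehicle. Gpn1 and Rpap1, which help to assemble the polymerase and bring it into the nucleus, were 0.83 ± 0.11 (adjusted p = 0.00069; −0.44 on the spike-in scale) and 0.80 ± 0.11 (adjusted p = 0.00081; −0.48 on the spike-in scale) higher with vehicle. Tbp, which encodes the TATA-binding protein at the heart of TFIID, had a mean log2 level of 0.52 with 4OHT, 1.17 with vehicle and 2.23 in untreated cells. Tbp fell by 1.06 ± 0.10 with vehicle (adjusted p = 0.00026) and was lower with 4OHT than with vehicle (−0.65 ± 0.10, adjusted p = 0.023). Btaf1, the ATPase that strips TBP from DNA, was also lower with 4OHT (−0.74 ± 0.13, adjusted p = 0.034).

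Of 13 Integrator genes, 8 were called higher and 3 lower with vehicle (0 and 11 on the spike-in scale). Ints1 was 1.20 ± 0.11 higher (adjusted p = 0.00024; −0.075 on the spike-in scale) and Ints4 0.78 ± 0.09 (adjusted p = 0.00055; −0.50 on the spike-in scale). Ints5 fell by 1.03 ± 0.17 with vehicle (adjusted p = 0.0018) and was lower again with 4OHT than with vehicle (−1.17 ± 0.17, adjusted p = 0.019), the only one of the 13 called there. Ints12 fell by 1.22 ± 0.10 with vehicle (adjusted p = 0.00020). Of 31 RNA polymerase I and III genes, 16 were called higher and 7 lower with vehicle (0 and 22 on the spike-in scale), and 3 were lower with 4OHT than with vehicle. Polr3gl, a polymerase III subunit, was 1.12 ± 0.15 higher with vehicle (adjusted p = 0.00074; −0.15 on the spike-in scale), and Polr1a, the largest polymerase I subunit, 0.995 ± 0.10 (adjusted p = 0.00036; −0.28 on the spike-in scale). Lower with 4OHT than with vehicle were Polr1c, a subunit common to both enzymes (−0.73 ± 0.11, adjusted p = 0.021), and Twistnb, a polymerase I subunit (−0.59 ± 0.09, adjusted p = 0.023). Brf2, a TFIIB-related factor of RNA polymerase III, fell by 1.996 ± 0.10 with vehicle (adjusted p = 3.0e-05). In each of these 4 lists 0 genes were called higher with 4OHT than with vehicle (limma; at an unadjusted p under 0.05, 1, 3, 1 and 1 were).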

How the data were processed

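Labelled RNA (100 ng of total RNA a sample, per the labels' protocols) was read on single-colour arrays. The deposited scanner files hold green-channel intensity from Agilent Feature Extraction 11.0.1.1, background-subtracted and processed by the authors' scanner software, per the file headers, although the label field names Cy5. The authors' deposited value table, which holds the same intensity on a linear scale rounded to fewer digits, served as an alternative after taking log2. Control spots and spots marked as outliers were left out, log2 of the processed signal was centred on each array's 75th percentile, spots were averaged per probe, and a probe was kept if well above background on all arrays of at least 1 group and had a usable spot on every array (33008 probes; 466 had none on some array). Genes were named through RefSeq accessions (GRCm38.p6 symbols; the array headers give mm9), and the brightest kept probe represented a gene. limma 3.58.1 in R 4.3.3 fitted 3 groups on 8 arrays, with Benjamini-Hochberg adjustment over 28491 features and calls at 0.05. The fit was tested on simulated data. The members and all lists were chosen with earlier results of these data known. The text names, in each complex, up to 2 called genes with the largest rise and 2 with the largest fall, together with the Cdk, Ccn and Supt genes, Med4, Ctdp1 and genes whose probes were called in opposite directions. Rises of 4OHT against untreated are given as counts. A bound ("at least") replaces a fold where no array of the dimmer group was well above background. Alternatives changed the background correction, scaling, filter, probe choice, variance model and samples, and each array was left out in turn. A fit with slide as a block could not be made, because the 4OHT arrays fill a slide of their own.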

Additional observations from a re-analysis of the deposited data

How the results depend on the processing

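Scaling decided the direction of most differences from untreated cells. On the spike-in scale the members called with vehicle against untreated went to 0 higher and 64 lower (median −0.83), those with 4OHT against untreated to 0 higher and 84 lower (median −1.09), and the median of 4OHT minus vehicle to −0.32. For vehicle against untreated, quantile normalization and array-median scaling each called 22 higher, and for 4OHT against untreated quantile normalization called 32 higher. Between 4OHT and vehicle, 9 members were called lower in the reported fit, and 2 with array-median scaling, with no filter on dim probes, with only the groups compared, or with the replicate block. The replicate block used the replicate numbers, and the labels do not say whether these pair the arrays. Deviations of same-numbered 4OHT and vehicle arrays correlated by 0.36 and 0.22. Those of treated arrays with same-numbered untreated arrays correlated by −0.19 to 0.11. Whether the numbers pair the arrays, and the cause of these losses, was not tested. Over all features these settings called 71 higher and 142 lower, 25 and 76, 18 and 48, and 8 and 12, against 263 and 734. Members called higher there numbered 1 with normexp and 2 with trend and robust variance. Leaving out 1 array at a time called 2 to 6 lower. Single genes turned sign on the spike-in scale: with vehicle against untreated Cdk8 (−1.17), Ccnh (−0.86), Med1 (−0.80), Gtf2h1 (−0.66), Gtf2f1 (−0.63), Ccnc (−0.59), Taf9b (−0.57), Supt5 (−0.56), Med13 (−0.49), Gtf2a2 (−0.42), Gtf2h5 (−0.41), Supt6 (−0.36), Gtf2i (−0.34), Taf10 (−0.34), Med12 (−0.33), Med16 (−0.33), Polr2f (−0.28), Polr2e (−0.27), Taf15 (−0.24), Med25 (−0.051), Ints4 (−0.50), Rpap1 (−0.48), Gpn1 (−0.44), Nelfcd (−0.32), Polr1a (−0.28), Supt16 (−0.21), Polr3gl (−0.15) and Ints1 (−0.075), and with 4OHT against untreated Ccnh (−0.97), Supt5 (−0.82), Ccnc (−0.81) and Supt6 (−0.75). Quantile normalization turned Cdk8 (−0.35), Gtf2f1 (−0.18) and Med16 (−0.15) with vehicle against untreated. Normexp turned Taf4b (0.50 with vehicle and 0.47 with 4OHT, against untreated) and Pcf11 (0.073 with vehicle, against −1.80 as reported). The mean of a gene's probes turned Med1 (−0.034 with vehicle against untreated) and Cdk8 (0.28 with 4OHT against untreated). With normexp, 84.8% of the features called between vehicle and untreated were higher, against 72.3%.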

Other observations

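The following genes were singled out after their values were seen, and differences between genes were not tested. The 4 measured TAFs of SL1, which brings RNA polymerase I to ribosomal RNA genes, did not have the same calls. Taf1c fell with vehicle against untreated (−1.33 ± 0.12) and again with 4OHT against vehicle (−0.63 ± 0.12). Taf1a had log2 levels of −0.93, −0.92 and −0.72 with 4OHT, −0.77 and −0.85 with vehicle, and −0.99, −1.03 and −0.95 in untreated cells, and Taf1b had −0.73, −0.80 and −0.82 with 4OHT, −0.62 and −0.65 with vehicle, and −0.55, −0.81 and −0.77 in untreated cells. Neither was called in any of the 3 comparisons. Taf1d was 0.33 ± 0.08 higher with vehicle than in untreated cells (adjusted p = 0.012; −0.95 on the spike-in scale), a call lost without vehicle replicate 1.

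Of the TAF paralogues, Taf5l fell by 1.99 ± 0.13 with vehicle against untreated (3.96-fold), and Taf5 by 0.61 ± 0.12 (1.52-fold). Taf6, which like TAF5 is part of TFIID, was 0.68 ± 0.10 higher (adjusted p = 0.0012; −0.60 on the spike-in scale), and its SAGA counterpart Taf6l was not called (0.11 ± 0.19, adjusted p = 0.63). Taf7l, a TAF7 paralogue known from mouse testis, was bright enough to be well above background on all 8 arrays, with levels of 1.89, 1.94 and 1.99 with 4OHT, 1.73 and 1.81 with vehicle, and 1.56, 1.45 and 1.66 in untreated cells. Only 4OHT against untreated passed for it (0.38 ± 0.09, adjusted p = 0.0084; −1.20 on the spike-in scale). The antisense transcript Med9os had levels of −3.41, −2.84 and −2.50 with 4OHT, −4.96 and −3.11 with vehicle, and −4.38, −4.29 and −4.14 in untreated cells, with vehicle replicate 2 near the 4OHT arrays. Its difference between 4OHT and vehicle, 1.12 ± 0.52, did not pass (adjusted p = 0.30). Against untreated it was called higher with 4OHT (1.36 ± 0.46, adjusted p = 0.039; −0.23 on the spike-in scale), a call lost without any 1 of the untreated arrays or without 4OHT replicate 2 or 3.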
